A study of Mus musculus with 21 samples.

Results

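Polyadenylated RNA of ventricular endothelial cells (EC, 2 libraries) was compared with that of cardiomyocytes (CM, 3 libraries) of mouse embryos at E12.5. These 5 samples of the 21 in the series were chosen by their labels and counted together over 24421 genes, and 14851 genes passed the filter on low counts and were tested. The EC group holds cells of Rosa26fsTrap;Tie2Cre ventricles, with ventricular apex given as the source, in which Tie2-Cre switches on the GFP reporter, and each library came from 60K sorted GFP-positive cells. Tie2-Cre is active in the whole endothelial lineage, endocardium included, in the cushion mesenchyme that derives from it, and in blood cells. The CM group is labelled as cardiomyocytes of the same day, and their genotype and the way they were isolated are not given in the sources used here. The other samples of the series are GATA4 pull-down and chromatin libraries, which were not used here.

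The endocardium and the myocardium lie against each other in the heart wall and signal to each other. Endothelial cells line the chambers and vessels, lay down and digest extracellular matrix, and carry the receptors through which flow, growth factors and blood cells act on the vessel wall. Cardiomyocytes contract without pause, draw their ATP from mitochondria, and are joined by desmosomes and gap junctions at the intercalated disc. Many proteins of these jobs belong to gene families with a general and a muscle form, so that the lineages can be compared within a family as well as between families.

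Differences were widespread. Of the tested genes 77.8% were called at an adjusted p below 0.05 (edgeR quasi-likelihood test, Benjamini-Hochberg adjustment over all tested genes), 37.5% higher and 40.2% lower in EC. The share called with a difference of at least 2-fold was 22.2% higher and 22.6% lower in EC. The median log2 fold change over all tested genes was -0.06 (EC over CM, the scale of every signed value in parentheses or after "at" below). Large differences were more often lower than higher in EC. At 16-fold or more, 223 genes were higher and 781 lower in EC, and among genes with more than 3 counts in each group the numbers were 171 and 423. No count was seen in either EC library for 257 of the genes called lower in EC, and none in any CM library for 9 of those called higher. EC libraries were shallower, with 27660790 and 21682362 counts against 48393473, 42948614 and 45522886 in CM. The labels do not say that replicates came from separate litters, and p-values therefore set the group difference only against the variation among these libraries.

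**Figure D1:**
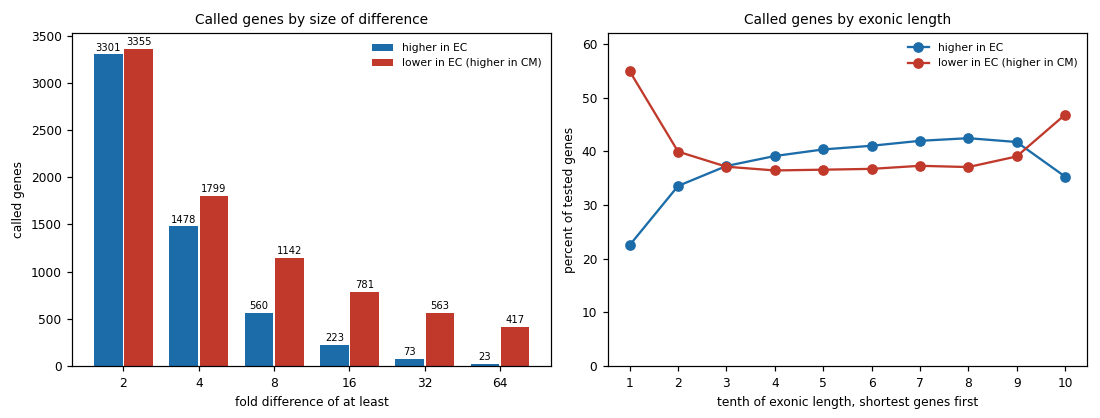
The left panel gives the number of called genes at or above each fold difference, higher in EC (blue) and lower in EC (red), and the right panel the percent of tested genes called in each direction in 10 classes of exonic length with like numbers of genes. At 2-fold the sides are alike (3301 and 3355 genes), at 64-fold they are 23 and 417, and in the class of shortest genes 22.5% were higher and 54.9% lower in EC.

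The labels were checked against marker genes, whose levels are given here as summed CPM (counts divided by the library total, times 1e+06, scaled by TMM). The 6 endothelial markers summed to 3815 and 3815 CPM in EC against 623, 628 and 539 CPM in CM, so that the CM libraries held 15.6% of the EC level. The 6 cardiomyocyte markers stood in EC at 0.448% of their CM level. The 6 mesenchymal markers, among them Col3a1, Postn and Pdgfra, summed to 3232 and 3094 CPM in EC against 546 to 661 CPM in CM. Blood was a small part of EC, with 14.3 and 11.2 CPM of 7 macrophage and leukocyte markers and 14.5 and 13.6 CPM of 6 erythroid markers. The erythroid sum was higher and uneven in CM, at 3117, 2329.9 and 1253 CPM in replicates 1 to 3, with Hba-a1 and Hbb-bt at 0 in all 5 libraries. The 5 epicardial markers summed to 59.9 and 56.3 CPM in EC against 239.6 to 268 CPM in CM. The 6 smooth muscle and pericyte markers summed to 272 and 272 CPM in EC against 1378 to 1733 CPM in CM. Most of that CM sum was Acta2, with 40.7 and 43.6 CPM in EC against 1162, 1264 and 1550 CPM in CM. Of these 6 markers 4 were called lower and 1 higher in EC, so the sum does not stand for the markers other than Acta2. Platelet markers summed to at most 27.8 CPM, neuronal to 25, neural crest to 5.25 and liver to 3.37 CPM in any library. In such bulk RNA, fewer cells of a type and less RNA per cell cannot be told apart.

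Transcripts that differ between the sexes were found in all 5 libraries in unequal amounts, in genes chosen after their values were seen. Xist, expressed from the inactive X chromosome of females, had 390.3 and 434 CPM in EC libraries against 192, 183 and 216 CPM in CM libraries. The Y-linked Eif2s3y had 22.8 and 22.6 CPM in EC against 110.1, 109 and 95.4 CPM in CM (-2.20), and Ddx3y (-0.60), Kdm5d (-0.81) and Uty (-1.93), also on the Y chromosome, were lower in EC too. Xist was thus higher and all 4 Y-linked genes lower in EC, and the part of sex in other differences was not tested. The CM column names share a tag that the EC names lack, and whatever it marks cannot be told apart from the lineage.

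Per exonic length, the transcripts at the top of the profiles were of different kinds. Among genes of at least 500 exonic bases, the imprinted noncoding RNA H19 led EC at 24623 ± 1645 RPKM in EC and 5072 ± 219 RPKM in CM (reads per kilobase of exons and 1e+06 counts, mean ± SD, n = 2 and 3). It also stood near the top in CM, where Myl2, the ventricular regulatory myosin light chain, led with 77.6 ± 16.1 RPKM in EC and 22401 ± 1527 RPKM in CM. EC further ranked Igf2, the fetal growth factor gene next to H19, at 3167 ± 18.2 RPKM in EC and 280.5 ± 24.8 RPKM in CM, the intermediate filament gene Vim at 2598 ± 5.3 RPKM in EC and 667 ± 30.8 RPKM in CM, and Cdkn1c at 2318 ± 8.28 RPKM in EC and 496 ± 88.4 RPKM in CM. The ribosomal precursor Rn45s ranked second in EC, at 9349 ± 500.5 RPKM in EC and 294 ± 78.2 RPKM in CM. Hsp90ab1, Eef1a1, Actb and Rpl4, genes of general cell function, were also among the first 10 in EC. CM ranked the sarcomere genes Myl4, Myh7, Actc1, Tnnt2 and Myl3, the natriuretic peptide gene Nppa at 34.8 ± 2.57 RPKM in EC and 3619 ± 808 RPKM in CM, the embryonic globin Hbb-y and the nuclear noncoding RNA Malat1. Hbb-y had 4887, 3641 and 1960.3 RPKM in CM replicates 1 to 3, in the order of the erythroid sums. Only H19 stood in the top 10 of both groups.

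To describe functions across the transcriptome, 91 gene families and pathways in 11 role classes were counted, which hold 3957 tested genes. Each count below is to be read against the 37.5% of all tested genes higher and 40.2% lower in EC. Within each family the called gene with the greatest fold each way was named, provided that each library of the group with more of it reached 5 CPM, and members named beside these were chosen after their values were seen. Genes said to lead a family or to stand at its ends are those of this rule. Some genes stand in several families. Receptors were the class with the greatest share of tested genes higher in EC, 173 of 304 (56.9%) against 83 lower. In energy and metabolism 82 of 371 were higher and 222 (59.8%) lower. The greatest share lower was in cell cycle and genome, 98 of 145 (67.6%) against 30 higher. That class includes the histones, with 58 of 67 lower.

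**Figure D2:**
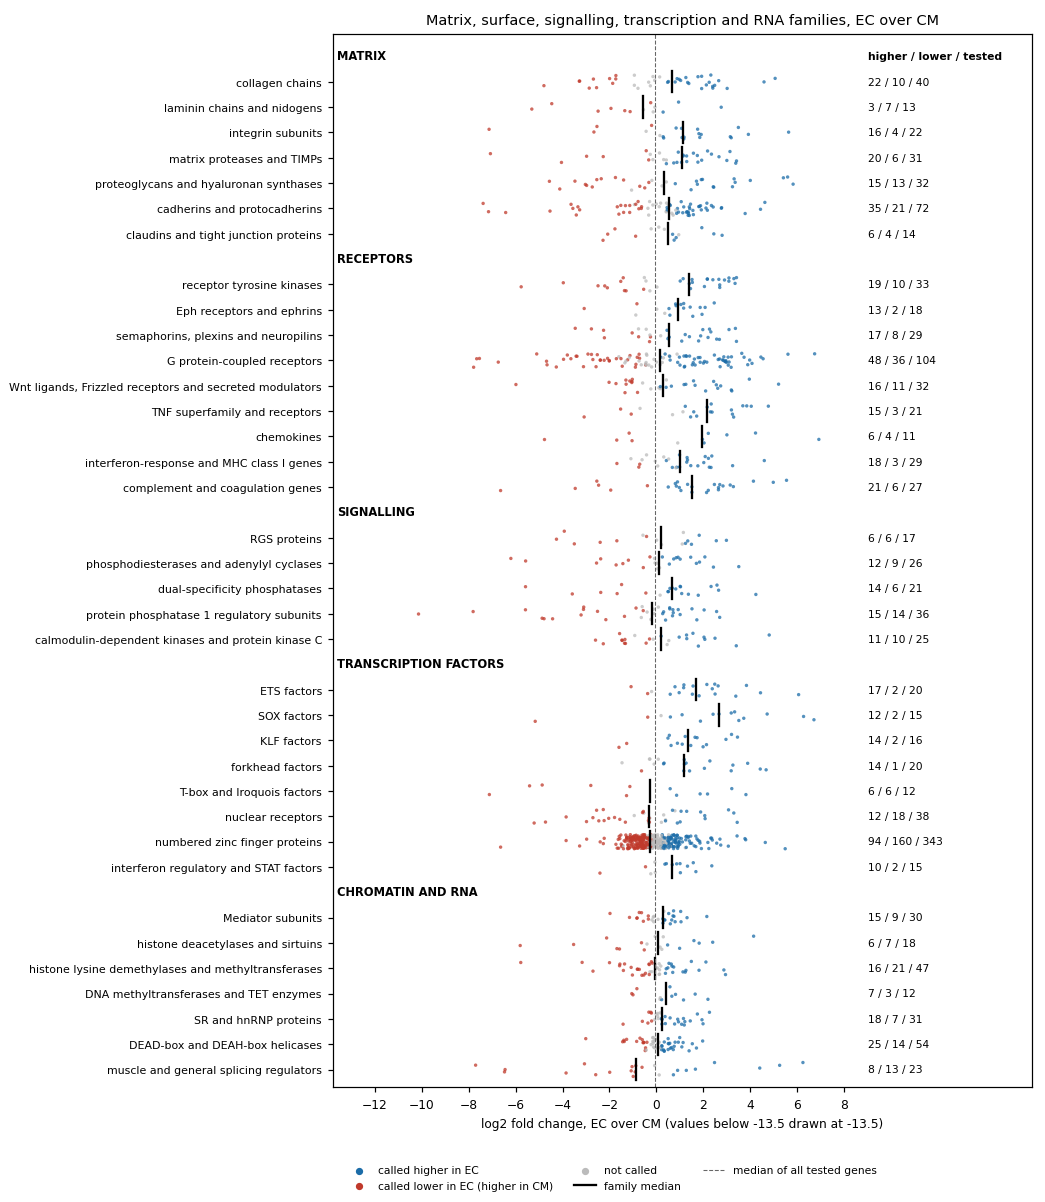
Each point is a tested gene placed by its log2 fold change (EC over CM), blue if called higher, red if called lower in EC and grey if not called, in families of at least 5 tested genes; black bars are family medians, the dashed line is the median of all tested genes, and the numbers at the right give genes higher, lower and tested. The medians of the SOX (2.67), TNF (2.17) and ETS (1.69) families lie right of the dashed line, and splicing regulators (-0.88) lie left of it.

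Matrix and adhesion genes were more often higher (117) than lower (65) in EC, of 224 tested. Collagen chains were higher in 22 of 40 cases and lower in 10 (median log2 fold change 0.66), integrin subunits in 16 and 4 of 22, and matrix proteases and their TIMP inhibitors in 20 and 6 of 31. Summed over the family, collagen chains took 1.14% and 1.07% in EC against 0.336%, 0.345% and 0.324% in CM of all counts. By number of genes called, laminin chains and nidogens ran the other way, with 3 higher and 7 lower of 13 (median -0.55). That median was -0.22 without EC replicate 1 and -1.36 without EC replicate 2. Their summed share of all counts was nevertheless higher in EC, at 0.323% and 0.323% against 0.239%, 0.243% and 0.243% in CM. Hapln1, which links hyaluronan to proteoglycans in the cushion jelly, had 1454 and 1491 CPM in EC libraries against 25.5, 28.2 and 24.1 CPM in CM libraries (log2 fold change 5.83, SE 0.09, adjusted p = 1.67e-11). The lower EC library was more than 20-fold above the highest CM library. Cartilage collagen IX chain gene Col9a3 (5.06), the linker Nid1 (2.76), the alpha-4 integrin gene Itga4 (3.92) and the gelatinase gene Mmp2 (3.41) led their families in EC. Col12a1 (-4.79), the beta-8 integrin gene Itgb8 (-2.66), the protease gene Adamts6 (-4.05) and the small proteoglycan gene Ogn (-4.56) led on the CM side. Mesenchymal markers were likewise higher in EC, and epicardial markers higher in CM, and their part in these family counts was not tested. Among 72 cadherins and protocadherins 35 were higher and 21 lower in EC, led by the endothelial junction gene Cdh5 (3.78) and by Cdh20 (-4.53). Of 14 tight junction genes 6 were higher, with the junctional adhesion gene Jam2 at 2.80, and 4 lower, with Cldn12 at -0.88.

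Receptor tyrosine kinases were higher in EC in 19 of 33 cases and lower in 10. Fgfr1, an FGF receptor gene, stood at 3.41, and Erbb4, the receptor of neuregulin in cardiomyocytes, at -5.76 with 0.957 and 1.54 CPM in EC against 65.5, 65.2 and 68.2 CPM in CM. Erbb2, its partner receptor, was lower in EC (-1.29), whereas the ligand gene Nrg1 had 38.8 and 35 CPM in EC against 3.93, 3.69 and 2.94 CPM in CM (3.39). Plexin D1 and its ligand semaphorin 3E also lay on opposite sides, Plxnd1 with 1404 and 1351 CPM in EC against 125, 143 and 119.5 CPM in CM and Sema3e with 0.957 and 0.543 CPM in EC against 7.47, 9.2 and 8.82 CPM in CM. The chemokine gene Cxcl12 had 4.5 and 2.76 CPM in EC against 92.5, 93 and 118 CPM in CM (-4.77), while the genes of its receptors, Cxcr4 and Ackr3, were higher in EC by 3.06 and 2.92. In the TNF family the ligand gene Tnfsf12 was higher in EC at 3.68, and its receptor gene Tnfrsf12a had 6.91 and 6.34 CPM in EC against 50.8, 59.3 and 58.3 CPM in CM (-3.08). Nrg1, Erbb2, Cxcr4, Ackr3 and Tnfsf12 were chosen after their values were seen, so these receptors and ligands do not stand for others of their families.

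Surface families with immune and clotting functions were mostly higher in EC. TNF ligands and receptors were higher in 15 of 21 cases and lower in 3 (median 2.17), led by the TNF receptor gene Tnfrsf1b with 20.6 and 18 CPM in EC against 0.562, 0.612 and 0.943 CPM in CM. Interferon-response and MHC class I genes had 18 higher and 3 lower of 29 (median 0.99), led by the tetherin gene Bst2 (3.25) and by Ifit2 (-1.68). The number lower was 6 without EC replicate 1 and 5 without EC replicate 2, without CM replicate 3 or without the filter on low counts. Complement and coagulation genes had 21 and 6 of 27, with von Willebrand factor Vwf at 3.28 and the tissue factor gene F3 at -2.46. Of 11 chemokine genes 6 were higher, led by Cxcl16 (3.01), and 4 lower. Macrophage and platelet markers were also higher in EC, though their sums were at most 27.8 CPM and their part in these counts was not tested. Eph receptors and ephrins had 13 higher and 2 lower of 18, led by Efna1 (2.47) and Efnb3 (-3.08). Semaphorins, plexins and neuropilins had 17 and 8 of 29, and Wnt ligands, Frizzled receptors and secreted modulators 16 and 11 of 32, with Wnt4 at 5.21 and the Wnt enhancer gene Rspo1 at -2.02. G protein-coupled receptors were split, with 48 higher and 36 lower of 104. At their ends stood Gpr182, a receptor of endothelial cells, with 176 and 189 CPM in EC libraries against 3.77, 4.26 and 3.21 CPM in CM libraries (log2 fold change 5.61, SE 0.11, adjusted p = 3.11e-11), and Gpr22, an orphan receptor of the heart, with 0.532 and 0.589 CPM in EC libraries against 130.4, 121 and 120.2 CPM in CM libraries (log2 fold change -7.79, SE 0.14, adjusted p = 1.67e-11). The groups did not overlap in these 2 genes, which were picked for their folds.

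Intracellular signalling families were mixed, and most held a strong member on each side. Rhog, a GTPase that acts on the actin cytoskeleton, led the signalling genes higher in EC among those with at least 20 CPM in each EC library, with 30.7 and 36.4 CPM in EC libraries against 1.44, 1.69 and 3.07 CPM in CM libraries (log2 fold change 4.02, SE 0.24, adjusted p = 5.95e-08). Phosphodiesterases and adenylyl cyclases had 12 higher (7 without EC replicate 2) and 9 lower of 26. Adcy4 had 152 and 149 CPM in EC against 13.4, 14.4 and 11.8 CPM in CM, and Adcy5, a main cyclase of the heart, 1.45 and 0.815 CPM in EC against 55.5, 51.1 and 60.4 CPM in CM. The other tested cyclase genes were Adcy2 and Adcy3, higher by 0.92 and 1.01, and Adcy1, Adcy6, Adcy7, Adcy8 and Adcy9, lower at values between -0.56 (Adcy6) and -6.20 (Adcy8). RGS proteins, which shorten G protein signals, had 6 on either side of 17, with Rgs3 at 2.55 and Rgs6 at -3.93. Dual-specificity phosphatases had 14 and 6 of 21 (Dusp23 at 4.24, Dusp27 at -5.58), and calmodulin-dependent kinases and protein kinases C and D 11 and 10 of 25 (Prkd2 at 3.41, Camk2d at -2.59). Regulatory subunits of protein phosphatase 1 had 15 and 14 of 36, with Ppp1r14a at 2.7. Ppp1r3a, the muscle subunit that brings the phosphatase to glycogen, had 2 counts over both EC libraries and 6555 in CM, a CM to EC ratio of 1220.3 (exact 95% interval 338 to 10078) that covers counting error only.

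Transcription factor families differed in direction. Higher in EC were 17 of 20 ETS factors, 12 of 15 SOX factors, 14 of 16 KLF factors and 14 of 20 forkhead factors, and 2, 2, 2 and 1 of them were lower. Without EC replicate 2 the numbers lower were 4 for ETS and 2 for forkhead factors, and without EC replicate 1 forkhead factors again had 2. Sox9, a regulator of valve mesenchyme and cartilage, had 163 and 167 CPM in EC libraries against 2.31, 2.07 and 2.0 CPM in CM libraries (log2 fold change 6.27, SE 0.09, adjusted p = 1.67e-11). The ETS gene Fev (8.61 and 9.6 CPM in EC against 0.229, 0.0941 and 0.0673 CPM in CM), Klf3 (3.46) and Foxp4 (4.68) led the other families in EC. Gabpa, an ETS factor of mitochondrial and housekeeping promoters, led the ETS genes lower in EC at -1.08 with 117 and 111 CPM in EC against 233, 245 and 244 CPM in CM, and Sox3 (-5.16), Klf8 (-1.27) and Foxn3 (-0.63) did so in their families. T-box and Iroquois factors were divided, 6 higher and 6 lower of 12. Irx4, which marks ventricular myocardium, had 0.709 and 0.906 CPM in EC libraries against 112, 109.9 and 112 CPM in CM libraries (log2 fold change -7.12, SE 0.13, adjusted p = 1.94e-11), whereas its relative Irx6 was higher in EC by 3.21. Nuclear receptors had 12 higher and 18 lower of 38, with the retinoic acid receptor gene Rarg at 3.44 and the mineralocorticoid receptor gene Nr3c2 at -4.73. Numbered zinc finger proteins, the largest family here, had 94 and 160 of 343, or 27.4% and 46.6%, with Zfp703 at 4.64 and Zfp536 at -6.64. Interferon regulatory and STAT factors had 10 higher, led by Irf2 (2.36), and 2 lower, led by Irf5 (-2.41), of 15. Of 39 HOX genes 3 passed the filter, and the family took 4.77e-04% and 2.44e-04% in EC against 2.21e-04%, 2.37e-04% and 3.38e-04% in CM of all counts.

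Short factor motifs were counted in the promoters of genes far apart in level, as a description without a test. RefSeq promoters (250 bases before to 50 after the start, mm10) were used for the 8829 tested genes with 1 promoter in the table, and both strands were searched. The MEF2 motif of muscle genes, TAAAAATA, lay in 3.91% of 384 promoters of genes at least 16-fold higher in CM, in 0 of 125 promoters of genes at least 16-fold higher in EC and in 1.14% of all. The GATA factor motif AGATAA lay in 12.8% of the EC set, 11.2% of the CM set and 6.27% of all. The ETS core AGGAAG lay in 42.4% of the EC set, 28.9% of the CM set and 32.9% of all. The longer ETS motif CCGGAAG, which holds part of that core and is frequent at housekeeping promoters, lay in 1.6% of the EC set, 4.95% of the CM set and 17.5% of all. The TEAD motif CATTCC lay in 12% of the EC set, 16.4% of the CM set and 12.1% of all. The core promoter motif TATAAA lay in 15.2% of the EC set, 15.1% of the CM set and 7.27% of all. The median share of G and C was 58.0% in the EC set, 56.2% in the CM set and 61.0% in all, so base composition differed between the sets too. In the larger sets of genes at least 4-fold apart, with 852 EC and 956 CM promoters, the order of the sets turned for AGATAA (8.33% in EC and 9.10% in CM), CCGGAAG (7.98% in EC and 6.8% in CM) and TATAAA (10.8% in EC and 11.8% in CM). A match is no evidence of binding, and a promoter without one says nothing of the factor. The sequences shown were taken from genes higher in EC for AGATAA and from genes higher in CM for TAAAAATA, a direction set by choice. They are, per motif, the 2 named genes with the greatest difference in that direction among those with a match. Each library of the higher group had to reach 20 CPM. The Myh7b promoter also holds AGATAA, which is not marked, so the display does not show which side has a motif. They were chosen after their values were seen. They show where the match lies before the start, 176 bases in Dnm1 (dynamin-1, 5.13) and 219 in Adcy4 (3.51) for AGATAA, and 162 in Myh7b (a slow-type myosin heavy chain, -7.83) and 68 in Casq2 (the calcium store protein of heart muscle, -7.31) for TAAAAATA. Each is printed 5′ to 3′ on the strand of its gene, from mm10 (GRCm38.p6). Capitals mark only the motif for which the gene was shown, or its reverse complement.
Dnm1 promoter (chr2:32353280-32353579, minus strand): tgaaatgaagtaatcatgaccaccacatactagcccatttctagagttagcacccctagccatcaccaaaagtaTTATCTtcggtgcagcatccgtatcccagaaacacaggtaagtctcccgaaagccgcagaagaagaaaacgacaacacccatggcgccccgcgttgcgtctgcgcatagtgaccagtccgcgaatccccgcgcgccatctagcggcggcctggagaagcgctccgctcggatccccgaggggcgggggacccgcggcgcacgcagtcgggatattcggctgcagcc
Adcy4 promoter (chr14:55784023-55784322, minus strand): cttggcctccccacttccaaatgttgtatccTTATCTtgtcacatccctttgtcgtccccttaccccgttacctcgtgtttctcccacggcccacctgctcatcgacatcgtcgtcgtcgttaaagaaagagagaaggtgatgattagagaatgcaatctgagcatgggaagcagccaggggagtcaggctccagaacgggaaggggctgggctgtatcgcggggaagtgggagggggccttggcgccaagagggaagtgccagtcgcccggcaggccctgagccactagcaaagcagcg
Myh7b promoter (chr2:155610993-155611292, plus strand): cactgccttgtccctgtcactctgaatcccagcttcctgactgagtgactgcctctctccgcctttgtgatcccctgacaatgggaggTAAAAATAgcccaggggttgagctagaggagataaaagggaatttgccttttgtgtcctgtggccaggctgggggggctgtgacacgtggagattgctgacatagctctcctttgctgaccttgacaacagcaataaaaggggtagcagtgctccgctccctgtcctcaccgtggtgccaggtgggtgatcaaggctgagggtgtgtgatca
Casq2 promoter (chr3:102086165-102086464, plus strand): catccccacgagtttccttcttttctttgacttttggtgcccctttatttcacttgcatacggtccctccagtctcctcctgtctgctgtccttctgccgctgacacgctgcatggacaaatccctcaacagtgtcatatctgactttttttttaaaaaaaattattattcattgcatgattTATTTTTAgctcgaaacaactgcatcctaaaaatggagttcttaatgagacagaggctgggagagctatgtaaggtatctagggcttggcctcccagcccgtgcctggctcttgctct

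Chromatin and RNA processing genes were higher in 95 and lower in 74 of 215 cases, and some of the leading members have known tissue roles. Mediator subunits were higher in 15 and lower in 9 of 30 cases (Med15 at 2.15, Med12l at -1.98). Histone deacetylases and sirtuins had 6 higher and 7 lower of 18. At the ends stood genes of class IIa enzymes, Hdac7 with 195 and 198 CPM in EC against 9.28, 12 and 12.1 CPM in CM and Hdac9 with 2.66 and 2.35 CPM in EC against 124, 138 and 160.3 CPM in CM, whereas of the other class IIa genes Hdac5 was lower (-2.12) and Hdac4 did not pass the test (0.23). Histone lysine methyltransferases and demethylases had 16 and 21 of 47, from Setd1b (2.95) to the muscle methyltransferase gene Smyd1 (-5.78). DNA methyltransferases and TET enzymes had 7 and 3 of 12, with the de novo methyltransferase gene Dnmt3b at 2.20 and Tet1 at -1.05. SR and hnRNP proteins had 18 and 7 (4 without EC replicate 1) of 31 (Hnrnpa1 at 2.26, Srsf1 at -0.60), and DEAD-box and DEAH-box helicases 25 and 14 (22 with the trend over gene length removed) of 54 (Ddx18 at 1.97, Ddx60 at -3.01). On a list of muscle and general splicing regulators, 13 of 23 were lower and 8 higher in EC. Nova2, known from neurons and endothelium, had 21.3 and 24.1 CPM in EC libraries against 0.645, 0.588 and 0.539 CPM in CM libraries (log2 fold change 5.25, SE 0.17, adjusted p = 5.32e-10). Rbm24, which directs splicing in heart and skeletal muscle, had 4.75 and 3.98 CPM in EC libraries against 372, 384 and 417 CPM in CM libraries (log2 fold change -6.47, SE 0.12, adjusted p = 1.94e-11). The lowest CM value of Rbm24 was far above its highest EC value, and the reverse held for Nova2, in genes picked for their folds.

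**Figure D3:**
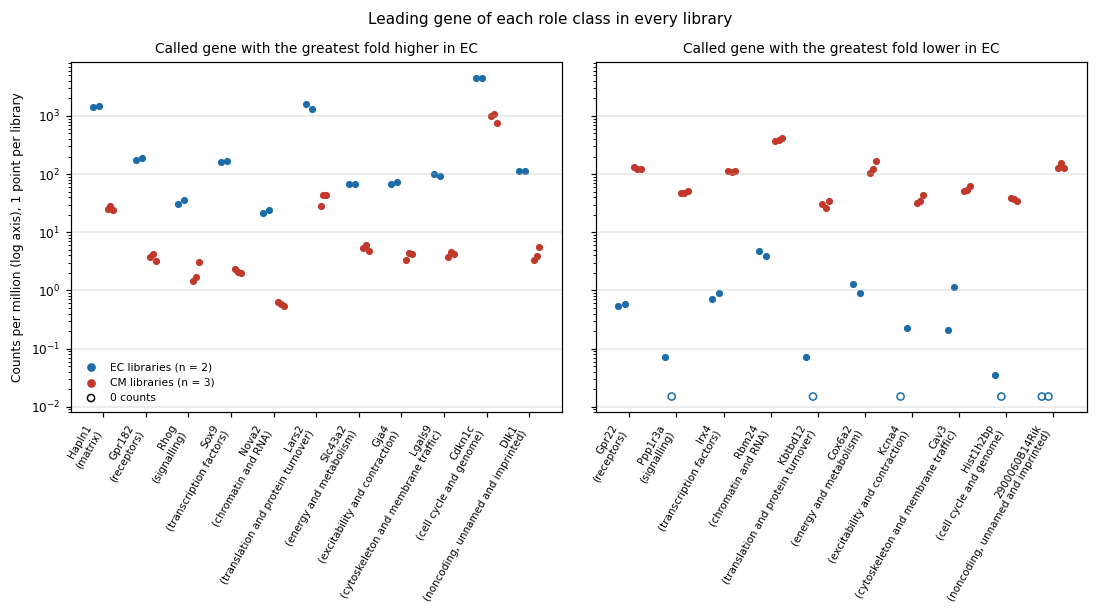
For the role classes named on the axes the plot gives the called gene with the greatest fold higher in EC (left panel) and lower in EC (right panel), where each library of the higher group reached 20 CPM, with 1 point per library on a log axis of CPM, EC in blue left of CM in red, and open circles for 0 counts. The genes were picked for the greatest fold, so that the groups lie apart in each of them follows from the choice. In the right panel 5 genes have 0 counts in at least 1 EC library.

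Translation genes were near balance in the cytosol and lower in EC in mitochondria. Cytoplasmic ribosomal protein genes had 30 higher and 40 lower of 80 (median -0.15, and -0.10 without CM replicate 2), and with the trend over gene length removed the counts were 50 and 20 and the median 0.48. They took 2.31% and 2.32% in EC against 2.98%, 2.72% and 2.59% in CM of all counts. Rpl27 (2.49) and Rpl37 (-2.45) stood at the ends, in a family with many pseudogene copies that can share reads. Mitochondrial ribosomal protein genes had 8 higher, led by Mrpl17 (1.00), and 56 lower, led by Mrpl15 (-2.53), of 77 (median -0.76). The number higher was 14 with the length trend removed, 4 without EC replicate 1 and 5 without CM replicate 2. The tRNA synthetases had 5 higher and 8 lower of 20 in the cytosol (Vars at 0.78, Gars at -1.55) and 1 higher and 14 lower of 17 in mitochondria (Ears2 at -2.34). The gene that stood against its family was Lars2, the mitochondrial leucine synthetase, with 1597 and 1308 CPM in EC libraries against 27.8, 43.5 and 43.4 CPM in CM libraries (log2 fold change 5.25, SE 0.18, adjusted p = 9.25e-10). Rn45s moved with it, at 56597 and 52469 CPM in EC against 1189, 2018 and 1932 CPM in CM, and its part in the Lars2 count was not tested. Initiation factors and their binding proteins had 21 and 19 of 52, led by Eif4ebp2 (3.51) and by the Y-linked Eif2s3y (-2.20).

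Chaperones and Kelch-like adaptors were more often lower than higher in EC. Chaperonin subunits, which fold actin and tubulin, were lower in EC in 8 of 9 cases (Tcp1 at -1.24), and Cct8 was higher at 0.23, a call lost without EC replicate 1 (0.21). Heat shock proteins and DnaJ cochaperones had 16 higher, led by the endothelial Hspa12b (3.03), and 35 lower, led by the muscle small heat shock gene Hspb2 (-5.66), of 67. Proteasome subunits had 13 and 20 of 41 (Psmb5 at 1.33, the immune subunit Psmb10 at -2.60). Kelch-like adaptors of ubiquitin ligases had 8 higher, with Klhl29 at 1.63, and 26 lower of 42. Among the lower ones Kbtbd12 had 2 counts over both EC libraries and 4081 in CM, a CM to EC ratio of 759.7 (exact 95% interval 210.2 to 6275). Tripartite motif proteins had 22 higher and 16 lower of 49, shares of 44.9% and 32.7% near those of all genes, from Trim8 (2.14) to the sarcomere-bound ligase gene Trim55 with 2.59 and 2.99 CPM in EC against 489.8, 481 and 557 CPM in CM.

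**Figure D4:**
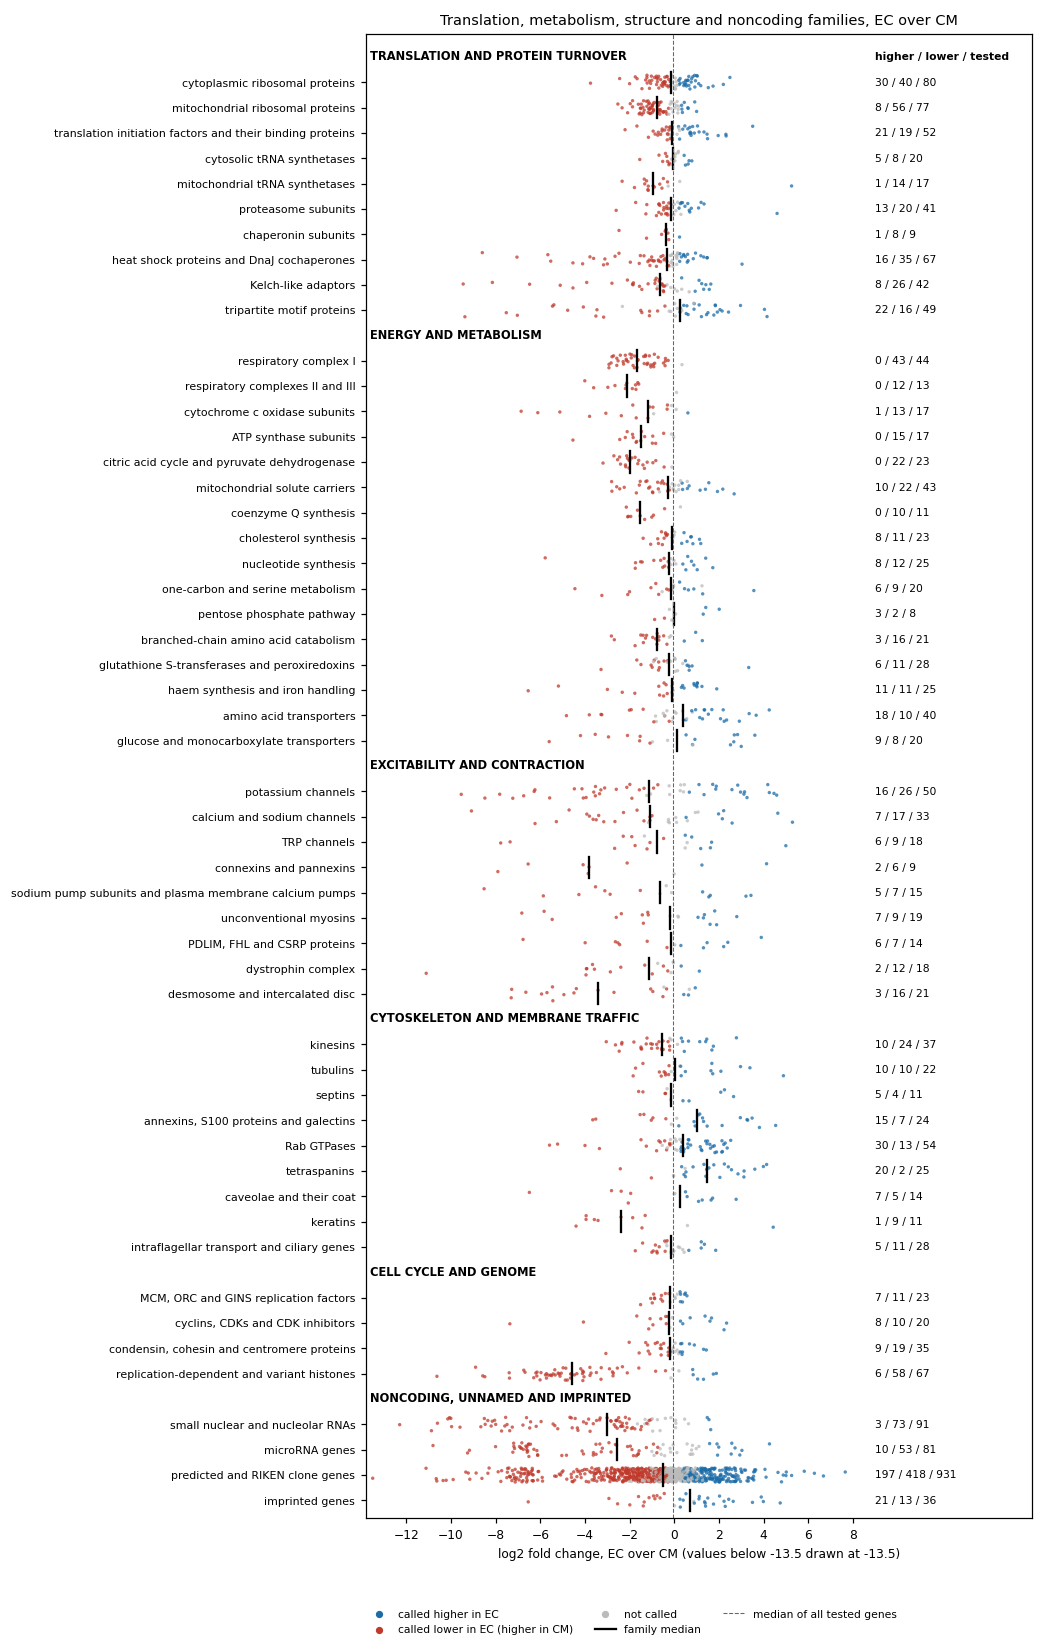
Axes and colours follow the plot of surface and signalling families (log2 fold change, EC over CM; blue higher, red lower in EC, grey not called; numbers for higher, lower and tested genes), here for the translation, metabolic, excitability, structural, cell cycle and noncoding families. No gene of respiratory complex I is called higher in EC, and histones (median -4.60) lie far left.

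Genes of mitochondrial ATP production were lower in EC almost throughout. Of 44 complex I genes, assembly factors included, 43 were lower and none higher (median -1.66), of 13 genes of complexes II and III 12 and none (median -2.13), and of 17 ATP synthase genes 15 and none (median -1.51). Cytochrome c oxidase had 1 higher and 13 lower of 17 (median -1.18). The citric acid cycle and pyruvate dehydrogenase had 22 lower and none higher of 23 (median -2.00), and coenzyme Q synthesis 10 and none of 11 (median -1.53). Complex I genes together took 0.181% and 0.171% in EC against 0.697%, 0.663% and 0.673% in CM of all counts, and ATP synthase genes 0.238% and 0.228% in EC against 0.882%, 0.816% and 0.831% in CM. Leading members were Ndufv2 of complex I (88 and 75.7 CPM in EC against 624, 612 and 633 CPM in CM) and Idh3a of the citric acid cycle (52.4 and 46.8 CPM in EC against 427, 449.5 and 484 CPM in CM). The log2 difference was greater in Uqcrb of complex III (-4.01) and Atp5k of ATP synthase (-4.54), and greatest among the leading members in Cox6a2, the heart and muscle form of a cytochrome c oxidase subunit, with 1.31 and 0.906 CPM in EC libraries against 106, 122 and 166 CPM in CM libraries (log2 fold change -6.86, SE 0.27, adjusted p = 2.19e-09). Many of these genes are short, and with the length trend removed complex I had 34 lower and 4 higher (median -1.28) and ATP synthase 12 lower and 2 higher (median -1.19). Cytochrome c oxidase then had 4 higher (median -0.78) and complexes II and III had 1 higher, as they did with the replicate number as a block. The citric acid cycle, whose genes are longer, had 22 lower and none higher with the trend removed (median -2.01). Without CM replicate 1 coenzyme Q synthesis had 1 higher. Uqcrq (0.10), Mdh2 (-0.11), Atp5d (-0.13), Coq10b (0.27) and Atp5g2 (-0.03) were among the members that did not pass the test.

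Other metabolic families were closer to balance. Mitochondrial solute carriers had 10 higher and 22 lower of 43 (Slc25a45 at 2.68, the aspartate carrier gene Slc25a13 at -2.81). Breakdown of branched-chain amino acids, which takes place in mitochondria, had 3 higher and 16 lower of 21. Its cytosolic first step, Bcat1, was higher in EC (1.25), and Auh led the lower genes (-2.82). Cholesterol synthesis had 8 and 11 of 23 (Dhcr7 at 1.18, Msmo1 at -1.39), nucleotide synthesis 8 and 12 of 25 (Impdh1 at 1.72, the muscle gene Adssl1 at -5.78), and one-carbon and serine metabolism 6 and 9 of 20 (the glycine decarboxylase gene Gldc at 3.56, Aldh1l2 at -3.24). In the pentose phosphate pathway 3 were higher and 2 lower (4 with the length trend removed) of 8, the transketolase gene Tkt at 2.01 and Taldo1 at -0.88. Glutathione S-transferases and peroxiredoxins had 6 and 11 of 28 (Gstk1 at 0.79, Mgst3 at -3.28). Haem synthesis and iron handling had 11 on either side of 25, the haem-degrading Hmox1 at 1.90 and the erythroid synthase gene Alas2 with 0.461 and 0.136 CPM in EC against 39.2, 29.8 and 20.4 CPM in CM. Alas2 is an erythroid marker and followed the order of the erythroid sums across CM replicates, whose part in this difference was not tested. Amino acid transporters were more often higher in EC, 18 against 10 of 40, with Slc43a2 at 68.7 and 67.1 CPM in EC libraries against 5.41, 5.95 and 4.71 CPM in CM libraries (log2 fold change 3.66, SE 0.11, adjusted p = 3.27e-10) and Slc6a13 at -4.83. Glucose and monocarboxylate transporters had 9 and 8 of 20, with Slc16a12 at -5.60.

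Excitability and contraction genes were more often lower (109) than higher (54) in EC. Potassium channels had 16 higher and 26 lower of 50 (median -1.15), calcium and sodium channels 7 and 17 of 33 (median -1.09), and TRP channels 6 and 9 of 18 (Trpc6 at 1.67, Trpc1 at -1.76). Kcna4, a channel of the transient outward current, had 0 and 0.226 CPM in EC libraries against 32.5, 34.4 and 43.5 CPM in CM libraries (log2 fold change -8.48, SE 0.38, adjusted p = 7.22e-09). The leak channel gene Kcnk6 was higher in EC (3.11), as was the calcium channel gene Cacna1b (2.59). Among gap junction genes Gja4, the connexin of arterial endothelium, had 66.8 and 73.9 CPM in EC libraries against 3.37, 4.45 and 4.26 CPM in CM libraries (log2 fold change 4.13, SE 0.12, adjusted p = 3.39e-10), and Gja5, a connexin of trabecular myocardium and arteries, 7.69 and 10.5 CPM in EC against 124, 134 and 122 CPM in CM (-3.82). Of 9 connexins and pannexins 2 were higher and 6 lower, and 3 had 3 or fewer counts in a group. Sodium and calcium pump subunits had 5 and 7 of 15, with the pump regulators Fxyd5 at 3.43 and Fxyd1, phospholemman, at -5.86.

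Genes of cell junctions and of force transmission had their strongest members in CM. Desmosome and intercalated disc genes had 3 higher and 16 lower of 21 (median -3.41). Nrap, which anchors actin filaments at the disc, had 1.49 and 2.13 CPM in EC against 254, 264 and 324 CPM in CM (-7.30), and the plakoglobin gene Jup, shared by endothelial junctions, 127 and 129 CPM in EC against 64.4, 62.9 and 73.7 CPM in CM (0.94). The dystrophin complex had 2 higher, with epsilon-sarcoglycan Sgce at 1.12, and 12 lower of 18. Unconventional myosins had 7 and 9 of 19 (Myo7a at 2.80, the sarcomere gene Myo18b at -6.83), and the LIM proteins of the PDLIM, FHL and CSRP families 6 and 7 of 14 (Fhl3 at 3.89, the muscle LIM protein gene Csrp3 with 8.79 and 6.47 CPM in EC against 936, 752 and 836 CPM in CM). Of 11 keratins 1 was higher (3 without EC replicate 2, and 3 without the filter on low counts), Krt79 (4.43), named after its value was seen, and 9 were lower, led by Krt19 (2.16 and 2.67 CPM in EC against 39.2, 37.4 and 34.3 CPM in CM). The epicardial markers were also higher in CM, and their part in the keratin counts was not tested.

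Membrane and traffic families were mostly higher in EC, microtubule motors lower. Tetraspanins, organisers of surface proteins, had 20 higher and 2 lower of 25 (median 1.45), with Tspan18 at 655 and 689.7 CPM in EC against 39.4, 36.9 and 38.8 CPM in CM and Tspan13 at -1.03. Annexins, S100 proteins and galectins had 15 and 7 (4 without CM replicate 1) of 24, where galectin-9, Lgals9, had 100.3 and 94 CPM in EC libraries against 3.73, 4.59 and 4.26 CPM in CM libraries (log2 fold change 4.54, SE 0.10, adjusted p = 6.89e-11) and the cardiac calcium sensor gene S100a1 stood at -3.52. Rab GTPases of vesicle traffic had 30 and 13 of 54 (Rab4a at 2.37, Rab20 at -3.35). Caveolae genes had 7 and 5 of 14, between the coat gene Ehd2 (2.77) and Cav3, the muscle caveolin, with 0.213 and 1.13 CPM in EC libraries against 51.2, 53.8 and 63.2 CPM in CM libraries (log2 fold change -6.49, SE 0.31, adjusted p = 1.02e-08). Kinesins had 10 higher and 24 lower of 37, and the close relatives Kif21b (2.78) and Kif21a (-3.05) were their ends. Tubulins had 10 on either side of 22 (Tubb3 at 4.88, Tuba4a at -1.84), septins 5 and 4 of 11 (Sept11 at 2.65, Sept3 at -1.60), and intraflagellar transport and ciliary genes 5 and 11 of 28 (Tctn3 at 1.85, Ift43 at -1.75).

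Replication, chromosome and cyclin families had medians near that of all genes. Replication factors of the MCM, ORC and GINS complexes had 7 higher and 11 lower of 23 (median -0.20), from Mcm5 (0.57) to Orc4 (-1.51). Condensin, cohesin and centromere genes had 9 and 19 of 35 (Stag3 at 1.31, Cenpv at -3.06), and cyclins, CDKs and CDK inhibitors 8 and 10 of 20. The last family took 0.72% and 0.711% in EC against 0.28%, 0.285% and 0.256% in CM of all counts. Most of the EC share was Cdkn1c, the imprinted CDK inhibitor p57, with 4513 and 4491 CPM in EC libraries against 1015, 1102 and 771 CPM in CM libraries (log2 fold change 2.23, SE 0.13, adjusted p = 4.45e-08). Cdkn1a, the inhibitor p21, was also higher (2.34), and Cdkn2d was lower (-1.68).

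Imprinted genes, which are expressed from 1 parental copy and act on fetal growth, were more often higher in EC. Of 36 tested 21 were higher and 13 lower (median 0.70), and together they took 8.57% and 9.12% in EC against 2.55%, 2.64% and 2.58% in CM of all counts, of which H19 made up most in EC. Dlk1, a membrane protein related to Notch ligands, had 113 and 115 CPM in EC libraries against 3.31, 3.98 and 5.52 CPM in CM libraries (log2 fold change 4.74, SE 0.16, adjusted p = 6.72e-10). Peg10 (3.98), Magel2 (3.89), Igf2 (3.50) and Meg3 (1.75) were higher too, whereas Zim1 (-2.93), Grb10 (-1.35) and Igf2r (-0.78) were lower.

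Short and unnamed transcripts ran mostly towards CM. Replication-dependent and variant histones had 6 higher, led by H1fx (1.88), and 58 lower of 67 (median -4.60), and took 0.175% and 0.183% in EC against 0.784%, 0.799% and 0.824% in CM of all counts. Hist1h2bp had 1 count over both EC libraries and 4964 in CM, a CM to EC ratio of 1848 (exact 95% interval 332 to 73015). The polyadenylated histone H3.3 genes were higher in EC, H3f3a with 88.2 and 97.8 CPM in EC against 41.7, 34.6 and 36.4 CPM in CM and H3f3b at 0.84. Small nuclear and nucleolar RNAs had 3 higher and 73 lower of 91, and Scarna10 had 0 counts in EC and was at least 286-fold lower, with 3 counts over the EC group as the floor. The number of these RNAs higher was 1 without EC replicate 1 and without each CM replicate in turn. Reads over microRNA hairpins, which are not the mature microRNAs, had 10 higher and 53 lower of 81 loci, and 4 and 34 with counts thinned to the shallowest library. Mirlet7a-1 had 1 count in EC and 5597 in CM, a CM to EC ratio of 2084 (exact 95% interval 374 to 82324). Most replication-dependent histone mRNAs and these small RNAs carry no poly(A) tail, both groups are labelled as polyadenylated RNA, and the share of Rn45s differed the other way; the part of RNA selection in these counts was not tested. Length moved with them too. In the shortest of 10 length classes (up to 1117 exonic bases) the median log2 fold change was -0.66, in class 6 it was 0.08 and in the longest -0.18. With the length trend removed, 17 small nuclear and nucleolar RNAs were higher and 38 lower, and 28 microRNA loci were higher and 17 lower. Predicted and RIKEN clone genes had 197 and 418 of 931, with Gm6654 at 7.65. The clone gene 2900060B14Rik had 0 counts in EC and 126, 153 and 129 CPM in CM, at least 2274-fold lower in EC.

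Within close paralogue groups, levels can be set side by side as RPKM. In 18 of 37 groups at least 1 paralogue was called higher and another lower in EC, in 17 all called members were lower and in 2 all were higher. Counted by gene, 30 of 114 were higher and 71 lower. Most groups were picked for a general and a muscle form, and some, such as histone H3.3, hold no muscle form, so these totals do not stand for paralogues at large.

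**Figure D5:**
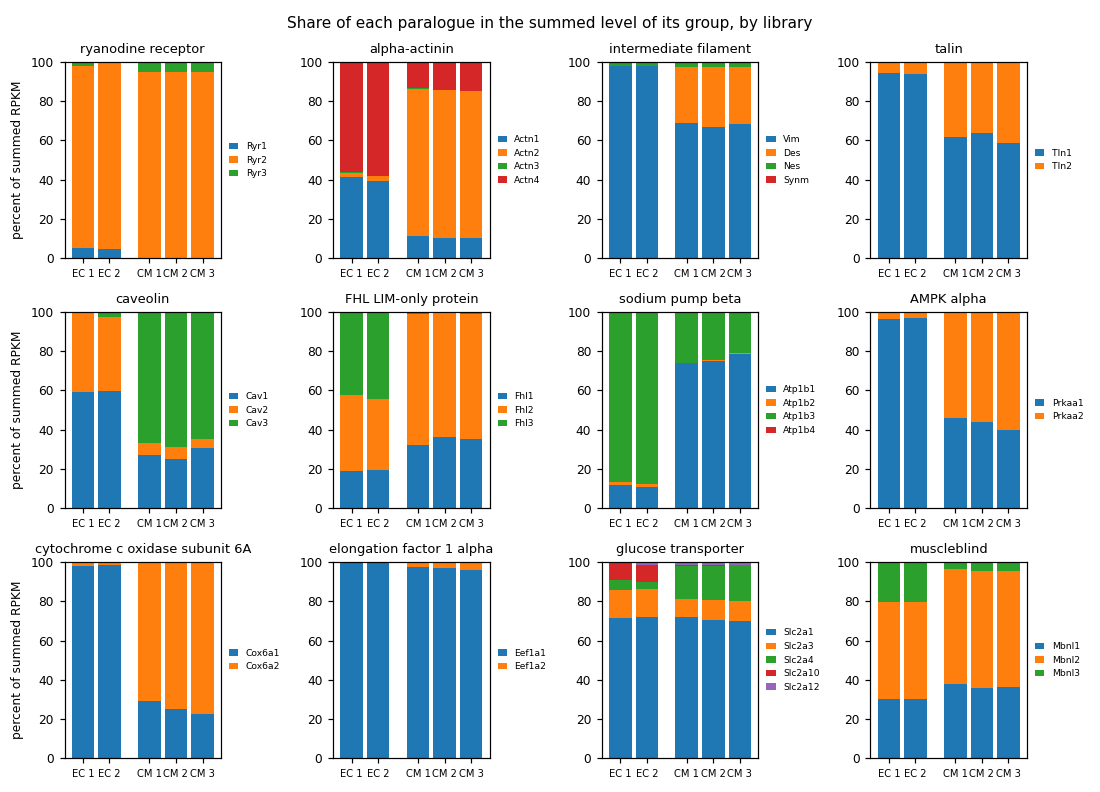
Stacked bars give the percent of each paralogue in the summed RPKM of its group, in the EC libraries at the left and the CM libraries at the right of each of 12 groups. Actn2 makes up 2.22% and 2.36% in EC against 75.2%, 75.3% and 74.7% in CM of the alpha-actinins, and Slc2a1 keeps 69.9% to 72.2% in all 5 libraries although it was lower in EC.

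Actin crosslinkers and filaments differed in form between the lineages. Filamin C, Flnc, the muscle filamin, had 5.54 and 5.01 RPKM in EC against 73.1, 74.9 and 78.4 RPKM in CM (-3.84), while Flna was higher in EC by 1.31, and Flnc held 3.7% and 3.49% in EC against 56.4%, 58.2% and 59.2% in CM of the summed filamin level. Among alpha-actinins the Z-disc gene Actn2 held 2.22% and 2.36% in EC against 75.2%, 75.3% and 74.7% in CM, and the non-muscle genes Actn1 (1.45) and Actn4 (1.51) were higher in EC. The muscle form thus made up most of its group in every CM library and under 5% in either EC library for these 2 groups. Of the 4 intermediate filament genes compared, Vim held the largest share in every library. It made up 97.9% and 97.7% in EC against 69%, 66.6% and 68.6% in CM of the summed level. CM libraries held 15.6% of the EC level of endothelial markers and 18.5% of that of mesenchymal markers. The part of such cells in the Vim level of CM was not tested. Des, the desmin of muscle, had 6.06 and 7.06 RPKM in EC against 291, 295 and 278 RPKM in CM (-5.46). Nes was higher (1.39) and Synm lower (-2.97). Talin 1, Tln1, differed little (0.25), and Tln2, the talin of muscle, had 3.39 and 3.54 RPKM in EC against 29.5, 27.3 and 31.5 RPKM in CM (-3.09). Caveolin 1, Cav1, with 20.0 and 21.2 RPKM in EC against 17.9, 17.1 and 25.7 RPKM in CM, was not called, Cav2 was higher (1.71), and Cav3 held 0.545% and 2.74% in EC against 66.9%, 68.6% and 64.7% in CM of the caveolin level. Of the FHL proteins Fhl1 (-2.52) and Fhl2 (-2.45) were lower and Fhl3 was higher with 15.3 and 16.8 RPKM in EC against 0.976, 0.782 and 1.48 RPKM in CM. The alpha laminins were dominated by Lama4, with 96.9% and 97.2% in EC against 89.9%, 89.2% and 87.6% in CM, and Lama4 itself did not pass the test (-0.13), while the muscle chain Lama2 was lower (-4.46) and Lama1 higher (0.95). The fibronectin receptor gene Itga5 (1.91) and Itga6 (1.07) were higher, and Itga3 (-2.53) was lower.

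Pumps and calcium channels also differed in form. The beta subunit of the sodium pump was mainly Atp1b3 in EC, with 157 and 164 RPKM in EC against 56.7, 58.7 and 49.7 RPKM in CM, and mainly Atp1b1 in CM, with 21.1 and 20.0 RPKM in EC against 162, 181 and 189.6 RPKM in CM. Atp1b1 made up 11.7% and 10.7% in EC against 73.8%, 75.2% and 78.8% in CM of the summed beta level. Of the plasma membrane calcium pumps Atp2b1, with 27.9 and 29.4 RPKM in EC against 29.6, 32.3 and 31.5 RPKM in CM, was not called, Atp2b4 was higher (1.61), and Atp2b3, with 0.021 and 0 RPKM in EC against 0.228, 0.227 and 0.249 RPKM in CM, was lower (-4.27). Atp2b2, with 0 counts in EC, was at least 20.6-fold lower. Of the IP3 receptors Itpr2 with 10.9 and 10.9 RPKM in EC against 10.7, 10.8 and 11 RPKM in CM was not called, Itpr3 was higher (1.49), and the small difference of Itpr1 (-0.22) lost its call without EC replicate 1 (-0.18) and without CM replicate 2 (-0.21). Ryr2, the calcium release channel of heart muscle, had 0.561 and 0.633 RPKM in EC against 56.3, 56.3 and 63.9 RPKM in CM, and Ryr3 0.0115 and 0 RPKM in EC against 2.96, 2.94 and 3.3 RPKM in CM.

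In groups of energy supply the muscle form was lower in EC and the general form often differed less. Cox6a1 had 98.8 and 107 RPKM in EC against 66.7, 63 and 72.6 RPKM in CM (0.61) and Cox6a2 1.99 and 1.37 RPKM in EC against 160.3, 186 and 252 RPKM in CM, so that Cox6a2 held 1.97% and 1.27% in EC against 70.6%, 74.7% and 77.6% in CM of the summed level. Cox7a1 (-6.11) and Cox8b (-5.12), likewise heart and muscle forms, were lower along with the general Cox7a2 (-1.86), Cox7a2l (-0.96) and Cox8a (-1.18). Cox4i1 (-1.71) and Ndufa4 (-1.05) were lower, and their relatives Cox4i2 (0.08) and Ndufa4l2 (0.34) did not pass the test. With the length trend removed Ndufa4 stood at -0.07 and lost its call. The ADP/ATP translocase genes Slc25a4 (-1.70) and Slc25a5 (-1.27) were both lower, and Slc25a31 did not pass (-0.66). Of the genes of ATP synthase subunit c, Atp5g3 (-0.98) and Atp5g1 (-0.48) were lower. The Atp5g1 call was lost without EC replicate 1 (-0.48), EC replicate 2 (-0.50) or CM replicate 1 (-0.29). It was also lost with the length trend removed (-0.08). Catalytic AMPK, the cellular energy sensor, was mostly Prkaa1 in EC, and the muscle form Prkaa2 held 3.43% and 3.05% in EC against 54.1%, 56.2% and 60.2% in CM of the level (-5.62). Its gamma subunits Prkag2 (-2.33) and Prkag3 (-5.20) were lower, and Prkag1 was lower by little (-0.21, a call lost at -0.23 and -0.22 without EC replicates 1 and 2 and at -0.22 without CM replicate 2). The adenylate kinase gene Ak1 had 9.19 and 6.11 RPKM in EC against 81.8, 84.8 and 90.0 RPKM in CM (-3.47), and Ak3 (-1.08) and Ak4 (-1.27) were lower. Glucose transporter gene Slc2a1 (-1.55), the insulin-responsive Slc2a4 (-3.54), Slc2a3 (-1.09) and Slc2a12 (-2.10) were lower, and Slc2a10 was higher with 2.71 and 2.77 RPKM in EC against 0.491, 0.432 and 0.372 RPKM in CM. Pyruvate dehydrogenase kinase genes Pdk1 (-3.54), Pdk3 (-3.31) and Pdk4 (-0.84) were lower, and Pdk2 did not pass (0.58). All 3 glycogen phosphorylase genes were lower, the brain form Pygb (-1.95) less than the muscle form Pygm (-4.98), with the liver form Pygl between them (-3.12). Of the acyl-CoA synthetase genes Acsl1 (-1.48), Acsl3 (-2.33) and Acsl4 (-0.48) were lower, Acsl5 was slightly higher (0.23, a call lost at 0.20 and 0.23 without EC replicates 1 and 2), and Acsl6 had 3 counts in EC and a CM to EC ratio of 12 (exact 95% interval 4.0 to 59.4).

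The remaining groups concern translation, kinases, chromatin, splicing and membrane anchoring. Eef1a1, with 1852 and 1884 RPKM in EC against 2238, 2092 and 2006 RPKM in CM, was not called, and the muscle and neuronal form Eef1a2 was lower at -6.92. Rpl3 was slightly higher (0.26, a call lost at 0.15 without EC replicate 2), and its muscle form Rpl3l, with 1 count in EC, had a CM to EC ratio of 15.6 (exact 95% interval 2.66 to 632). The S6 kinase genes Rps6ka1 (0.91), Rps6ka2 (1.83) and Rps6ka3 (0.66) were higher, and Rps6ka5 was lower (-1.65). All 4 CaMKII genes were lower, from Camk2a (-0.44, a call lost at -0.37 without EC replicate 2) and Camk2g (-1.47) to Camk2b (-2.26) and Camk2d (-2.59). The muscleblind splicing genes Mbnl1 (-0.90) and Mbnl2 (-0.88) were lower and Mbnl3 was higher with 11.2 and 11.6 RPKM in EC against 3.22, 3.76 and 3.81 RPKM in CM. Celf2 was lower (-1.04) and Celf1 did not pass (-0.07). Dnmt3b was higher and Dnmt3a barely so (0.22, a call lost at 0.13 without EC replicate 2 and at 0.16 without CM replicate 1). Dystrophin, Dmd, had 2.35 and 2.5 RPKM in EC against 30.4, 29 and 32.7 RPKM in CM and its relative Utrn 11.7 and 12.4 RPKM in EC against 28.5, 30.2 and 31.9 RPKM in CM, and both were lower, as were the ankyrin genes Ank1 (-2.91), Ank2 (-1.77) and Ank3 (-2.27).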

How the data were processed

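RNA was measured in 2 EC and 3 CM libraries, both labelled polyadenylated RNA. The authors deposited whole-number counts of reads, which featureCounts 1.6.3 had assigned per gene for forward-stranded reads on mm10 genes with exonic lengths, per the file headers; STAR 2.7.3a is named in the submitters' processing notes. Counts were used as deposited, at 21682362 to 48393473 per library. Genes were filtered with filterByExpr, scaled by TMM and tested with edgeR 4.0.16 in R 4.3.3 (quasi-likelihood F test, Benjamini-Hochberg, threshold 0.05); SE is the log2 fold change over the root of F. CPM and RPKM use TMM-scaled totals. Summaries were made in Python 3.11.15 with pandas 2.3.3 and scipy 1.17.1, figures with matplotlib 3.10.9. Code was tested on simulated data.

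Families, paralogue groups, markers and tests were chosen with earlier results of these data known, and the patterns of 2 families were corrected after genes outside them were seen to match. Named genes were, in each family, the called gene with the greatest fold each way whose higher group reached 5 CPM in each library, all paralogues, and the 10 highest RPKM per group among genes of at least 500 bases; per-library values were fixed for role-class leaders of at least 20 CPM. Reads of near-identical copies (histones, ribosomal proteins, tubulins, actins) may be lost or split. The chi-square between libraries of a group was 7.84 per degree of freedom or more, beyond sampling noise. DESeq2 1.42.0 was the other tool. Promoters are from RefSeq, GRCm38.p6, whose symbols matched 95% of genes. Proteins were not analysed here, and some genes and families are not reported here.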

Additional observations from a re-analysis of the deposited data

How the results depend on the processing

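Under each alternative tried, no gene called in both settings changed direction, except 34 genes with the trend over exonic length removed. Other scalings, DESeq2, no filter on low counts, thinning to the shallowest library and leaving out small RNA, histone and Rn45s genes kept the 4 totals within 1.5 times. Tested against a fold of 2, 2569 genes were higher and 2675 lower in EC. Leaving out each library gave 5163 to 5437 genes higher and 5438 to 5904 lower in EC, and 3185 to 3343 and 3129 to 3575 at 2-fold or more. The labels do not say that replicate numbers pair libraries. Deviations of same-numbered libraries correlated at -0.02 and -0.01, but with 2 EC libraries the EC deviations mirror each other, so this cannot decide pairing. The replicate block gave 5248 genes higher and 5729 lower in EC. Without the filter the median of all genes shifted by -0.17. With the length trend removed, family medians changed sign in histone deacetylases, DEAD-box helicases and cytoplasmic ribosomal proteins. They also did so in the pentose phosphate pathway, in PDLIM, FHL and CSRP proteins and in tubulins. Atp5g2 then stood at 0.66 in place of -0.03. The cause was not tested. Medians of other families changed sign under other alternatives too. Examples without the filter are tight junction genes (0.52 to -0.92) and proteoglycans (0.33 to -0.18). Without EC replicate 1 the HOX median went from 0.86 to -1.71 and that of sodium and calcium pumps from -0.64 to 0.06. Without EC replicate 2, RGS proteins (0.22 to -0.03) and unconventional myosins (-0.19 to 0.18) turned. Eef1a1, Lama4, Pdk2, Itpr2 and Cav1, not called here, passed under at least 1 alternative. Depth limits genes near 0 in EC, whose fitted folds depend on the prior count: with such genes at their bounds the median was -2.38 for connexins, -2.83 for small nuclear and nucleolar RNAs and -1.97 for microRNA loci.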
